A study of Mus musculus with 14 samples.

Results

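Liver sinusoidal endothelial cells (LSECs) were sorted from healthy livers and from livers 1, 3 and 7 days after a single injection of carbon tetrachloride (CCl4), a hepatotoxin, and their RNA was sequenced. Here the counts are described for 50 lysosomal genes out of the 54524 genes in the count table. They form a list of gene symbols drawn up with earlier results of these data known, each symbol matched 1 Ensembl gene identifier in the GENCODE vM21 annotation, and they comprise 12 genes of the vacuolar proton pump, 9 membrane proteins, 26 luminal enzymes and their helper proteins, and 3 transcription factors. All 50 passed the filter on low counts that left 26626 genes for testing, and the lowest count of any of them in any sample was 331.

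The lysosome is the acidic organelle in which cells break down material taken up by endocytosis or delivered by autophagy. A membrane-embedded V0 part and a cytosolic V1 part of the vacuolar ATPase pump protons into the lumen, where hydrolases cleave glycans, glycosaminoglycans, lipids and proteins, and heavily glycosylated proteins line the membrane. LSECs are scavenger cells that clear denatured proteins, glycosaminoglycan fragments and other waste from the blood through stabilins, mannose receptors and Fc receptors, and much of that cargo ends in their lysosomes. The related transcription factors TFEB, TFE3 and MITF bind the letters CACGTG in the promoters of many lysosomal genes.

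The motif was searched in the promoters of the genes as context for the 3 factors, in the RefSeq promoter sequences (GRCm38.p6, 250 bases before to 50 after the gene start). An entry was found for 44 of the 50 genes. The 7 letters TCACGTG, on either strand, occurred in 11 of these 44 promoters (25%), in 5.93% of the 14643 tested genes with an entry and in 4.29% of all 27025 entries. The 6 letters CACGTG, which lie within the longer motif, occurred in the same 11 promoters, against 10.3% of the tested genes. The 11 genes are Arsa, Atp6v0b, Atp6v0d1, Atp6v1a, Gaa, Gla, Glb1, Lamp1, Mcoln1, Naglu and Sgsh. Stretches around the motif are printed for Gla, the only one of the 11 whose expression passed the test in any comparison, for Lamp1, the most abundant of them, for Mcoln1, the lysosomal calcium channel gene, and for the pump gene Atp6v0d1. The letters run 5′ to 3′ along the gene's strand and capitals mark the motif. CACGTGA is the same motif on the other strand, and TCACGTGA holds it on both. Lamp1 has further matches that are not printed, which begin 28 and 16 bases before the gene start.
Gla, first stretch: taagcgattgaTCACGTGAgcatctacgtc
Gla, second stretch: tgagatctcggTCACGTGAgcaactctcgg
Lamp1, first stretch: agggcaagataTCACGTGgtccagcgccc
Lamp1, second stretch: ggtccagcgccCACGTGAtgccgactggc
Mcoln1, first stretch: ggtcgcgcttgTCACGTGttcagttcagg
Mcoln1, second stretch: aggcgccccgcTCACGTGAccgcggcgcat
Atp6v0d1: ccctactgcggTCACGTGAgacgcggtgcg
The Gla stretches lie at chrX:134601215-134601244 (minus strand) and chrX:134601182-134601211 (minus strand), the Lamp1 stretches at chr8:13159088-13159116 (plus strand) and chr8:13159105-13159133 (plus strand), the Mcoln1 stretches at chr8:3500436-3500464 (plus strand) and chr8:3500462-3500491 (plus strand), and the Atp6v0d1 stretch at chr8:105566050-105566079 (minus strand). A match describes the letters only and is no measurement of binding.

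The healthy group held 4 samples from male Balb/c mice of 10 to 12 weeks that had received no injection. The injured groups held 2 samples at day 1, 4 at day 3 and 4 at day 7 from male Balb/c mice of the same age range, each given 1 intraperitoneal injection of CCl4 in mineral oil at 0.5 µl per g body weight. Because the healthy mice received neither oil nor an injection, the effects of CCl4, of the oil and of the injection cannot be told apart. The ages are those of the sample labels, and the study's methods give a somewhat older range. The sort took live cells that were positive for CD32, an Fc receptor of LSECs, and negative for the macrophage antigen F4/80 and for ultraviolet autofluorescence, and the study's methods add the absence of CD45. In stained livers the study saw a temporary loss of CD32b at days 1 and 3. Whether the sort missed LSECs with little CD32 in the injured groups was not tested. No culture step followed. With 2 samples, day 1 has the least certain spread, and the study states that other day 1 samples were left out for low RNA integrity.

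Total counts ran from 46401496 to 103912264 per sample, and 22986 to 34768 genes had at least 1 count. Mitochondrial transcripts took 3.04% to 3.65% of the counts in healthy samples, 3.51% to 4.49% in the day 1 group, 3.06% to 5.87% in the day 3 group and 5.28% to 9.87% in the day 7 group, where every sample was above every healthy sample. All 12 LSEC markers were detected in every sample, with a summed level (in CPM, read counts scaled to a common library size) of 16828 to 20413 in the healthy group, 13780 to 16627 in the day 1 group, 11073 to 14788 in the day 3 group and 10252 to 14809 in the day 7 group. The sum weights abundant markers most. By the edgeR test described below, Lyve1, Cdh5 and Clec1b were higher and Kdr lower at day 1. At day 3 Lyve1 was higher and Fcgr2b and Ntn4 lower, and at day 7 none passed. Of all genes tested, 4.06%, 7.19% and 3.18% passed at days 1, 3 and 7. Of the 12 markers, 9, 9 and 10 had a negative log2 fold change at these days. Markers of other cells were present too, and no marker was at 0 over a whole group. The 11 monocyte and neutrophil markers summed, in the same order of groups, to 508 to 1366, 4306 to 8368, 1341 to 12713 and 4134 to 9545 CPM. The 6 markers of macrophages of injured tissue, among them Gpnmb and Trem2, summed to 142 to 233, 436 to 684, 591 to 1737 and 1189 to 6835 CPM. The 12 Kupffer cell markers summed to 331 to 2171, 1122 to 2453, 735 to 1674 and 775 to 2033 CPM, with the lowest value in healthy replicate 1. The 10 stellate cell markers summed to 138 to 265, 94.6 to 107, 616 to 1748 and 354 to 5473 CPM. The 8 hepatocyte markers summed to 183 to 8115, 24.7 to 121, 827 to 2850 and 777 to 5965 CPM. Healthy replicate 4 held the 8115 CPM and the other healthy samples 183 to 348, so both day 1 samples were below all healthy samples and every day 3 and day 7 sample was above 3 of the 4. The 5 cholangiocyte markers, which share Spp1 with the macrophages of injured tissue, summed to 79.2 to 193, 229 to 301, 321 to 1178 and 598 to 5255 CPM, and the 6 markers of B, T and NK cells to 32.9 to 164, 49.1 to 54.5, 24.2 to 198 and 57.4 to 147 CPM. The part of these cells and of the mitochondrial share in the results below was not tested, and because the RNA is that of a sorted population, fewer cells of a type and less RNA per cell cannot be told apart.

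**Figure D1:**
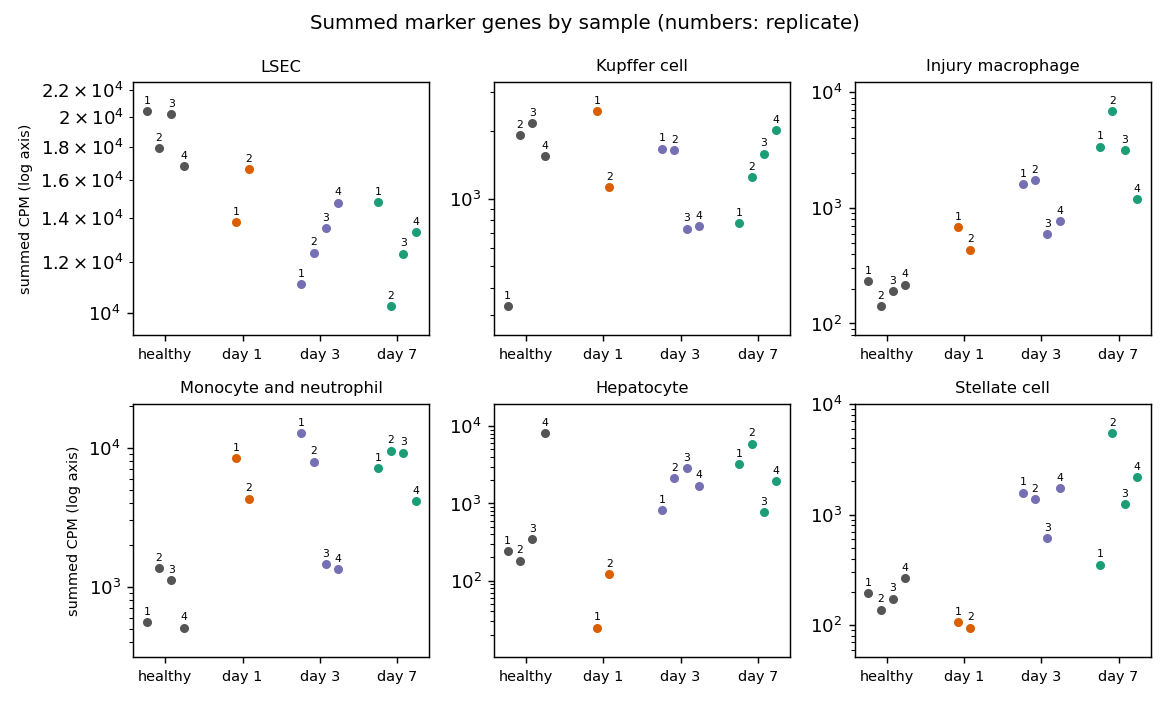
Summed CPM (log axes) of 6 marker lists in each of the 14 samples, with replicate numbers beside the points. The LSEC sum, which weights abundant markers most, was lower in every injured sample than in every healthy sample. At day 3, replicates 1 and 2 held 7944 to 12713 CPM of monocyte and neutrophil markers against 1341 to 1457 in replicates 3 and 4.

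In healthy LSECs the lysosomal genes covered a wide range of levels. Lengths differ between genes, so levels between genes are given in TPM (counts divided by annotated exon length and scaled to a common total), as the mean ± SD of the 4 healthy samples. The highest were Laptm4a, a small membrane protein of late endosomes and lysosomes, at 1167 ± 254 TPM, Lamp1, a main glycoprotein of the lysosomal membrane, at 989.7 ± 57.9 TPM, and Psap, the precursor of the saposins that help sphingolipid enzymes, at 527 ± 263 TPM. Laptm4a and Lamp1 did not differ beyond their spread. Hexa, a β-hexosaminidase subunit, at 354 ± 38.5 TPM, and Lamp2, the second main membrane glycoprotein, at 267 ± 27.5 TPM, followed. The pump genes lay between 19.8 ± 1.28 TPM for Atp6v0a1 and 209.8 ± 15.2 TPM for Atp6ap2. The lowest were Npc1, the membrane cholesterol exporter, at 4.69 ± 0.527 TPM, Galns, a sulfatase of keratan sulfate and chondroitin sulfate, at 4.52 ± 0.635 TPM, and Mitf at 1.58 ± 0.343 TPM. Npc1 and Galns overlapped in their spread.

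**Figure D2:**
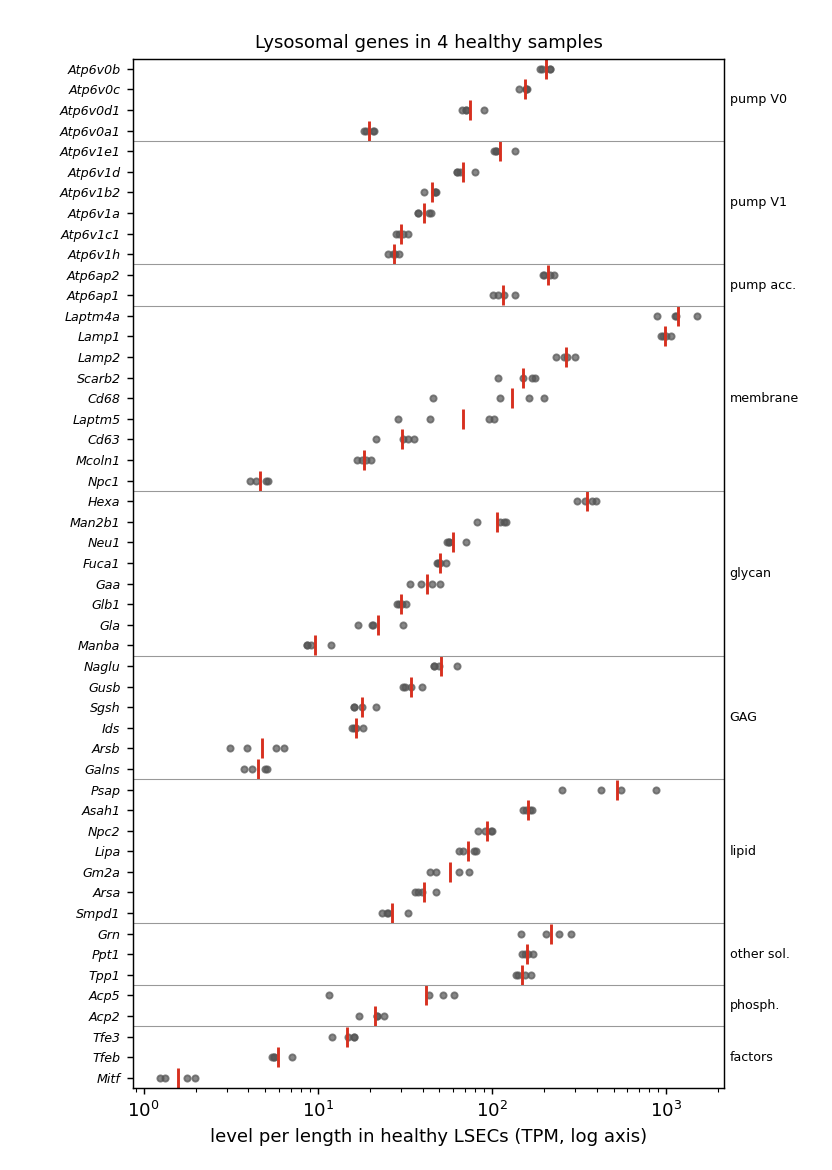
Level per length of the 50 lysosomal genes in the 4 healthy samples, in TPM on a log axis, grouped by role. Grey points are samples and red bars are means, running from 1.58 TPM for Mitf to 1167 TPM for Laptm4a.

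The healthy samples varied most in 4 genes, Acp5, Cd68, Laptm5 and Psap. The study lists ACP5 among its genes enriched in LSECs of healthy human livers. The SD of log2 CPM was 1.06 for Acp5, a phosphatase of osteoclasts and macrophages, 0.94 for Cd68, 0.92 for Laptm5 and 0.76 for Psap, against a median of 0.16 over the 50 genes and 0.03 for Lamp1. Healthy replicate 1, which had the lowest Kupffer cell marker sum, was the lowest healthy sample in all 4. It was also the lowest in many other genes, among them Grn, Laptm4a, Man2b1, Gaa, Hexa, Tfe3 and Tfeb. Cd68, Laptm5 and Psap were highest in replicate 3, which had the highest Kupffer cell marker sum, and Acp5 was highest in replicate 4. A link to the marker sum was not tested. Acp5 was at 10.7, 48.7, 39.7 and 50.5 CPM, Cd68 at 26.1, 94.7, 112 and 57.1 CPM and Laptm5 at 49.7, 168, 175 and 68.6 CPM in healthy replicates 1 to 4. Lamp1, at 1161, 1149, 1202 and 1162 CPM, hardly moved among them.

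After the injection the lysosomal genes did not move as 1 block. A gene was called when its adjusted p in edgeR's quasi-likelihood test, corrected over all 26626 genes, was under 0.05, and called refers to edgeR wherever no other tool is named. At day 1, 7 of the 50 were called against healthy, beside 4.06% of all genes tested, with 6 higher (2.42% of all genes) and 1 lower (1.64%). At day 3, 9 were called, beside 7.19% of all genes, with 5 higher (4.62%) and 4 lower (2.58%). At day 7, 5 were called, beside 3.18% of all genes, with 4 higher (2.19%) and 1 lower (0.992%). Over all comparisons 15 genes were called at least once and 35 never, against 29 called at least once by DESeq2 and 41 by limma. The share of all genes called at least once is not given here. DESeq2 and limma also called more of all the genes than edgeR did in each comparison, as given at the end. Their counts for single roles and lists below, and counts at an unadjusted p under 0.05, have no such share beside them. Counts by edgeR for single roles stand beside the same 4.06%, 7.19% and 3.18% of all genes at days 1, 3 and 7. Some genes that edgeR did not call on a day were called then by DESeq2 or limma, which is not stated below in every case. The median log2 fold change of the 50 genes was 0.15 at day 1, -0.08 at day 3 and -0.08 at day 7, beside -0.03, 0.18 and 0.02 over all genes tested. With scaling by library size only the calls were 5 higher and 0 lower at day 1, 7 and 3 at day 3, and 4 and 0 at day 7, and with RLE size factors they were 6 and 0 at day 1. The samples of a group lay all above or all below the healthy samples in 18 and 12 of the 50 genes at day 1, beside 37.9% of all genes in either direction, in 7 and 11 at day 3, beside 14.4%, and in 11 and 11 at day 7, beside 20.8%. These 3 comparisons share the 4 healthy samples.

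These counts depended on single libraries. Counts over all genes in the same fits are not given here, so the shifts cannot be called particular to the lysosomal genes. Where a call of a gene is said below to be lost, the fit with the replicate number as a block is left out. The calls lost in that fit are given at the end. At day 1, 1 gene was called without either day 1 sample or without healthy replicate 1, 2 without healthy replicate 4, 3 without healthy replicate 2 or 3, and 11 without day 3 replicate 4. At day 3, 22 were called without day 3 replicate 4 and 14 without day 7 replicate 1. At day 7, 2 were called without healthy replicate 1, 3 without any 1 of healthy replicates 2 and 3, day 7 replicates 2, 3 and 4 and the day 1 samples, 8 without day 3 replicate 4 and 9 without day 7 replicate 1. Without day 3 replicates 1 and 2, a choice made after their monocyte and neutrophil marker sums were seen, 14 genes were called at day 1, 11 at day 3 and 10 at day 7.

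**Figure D3:**
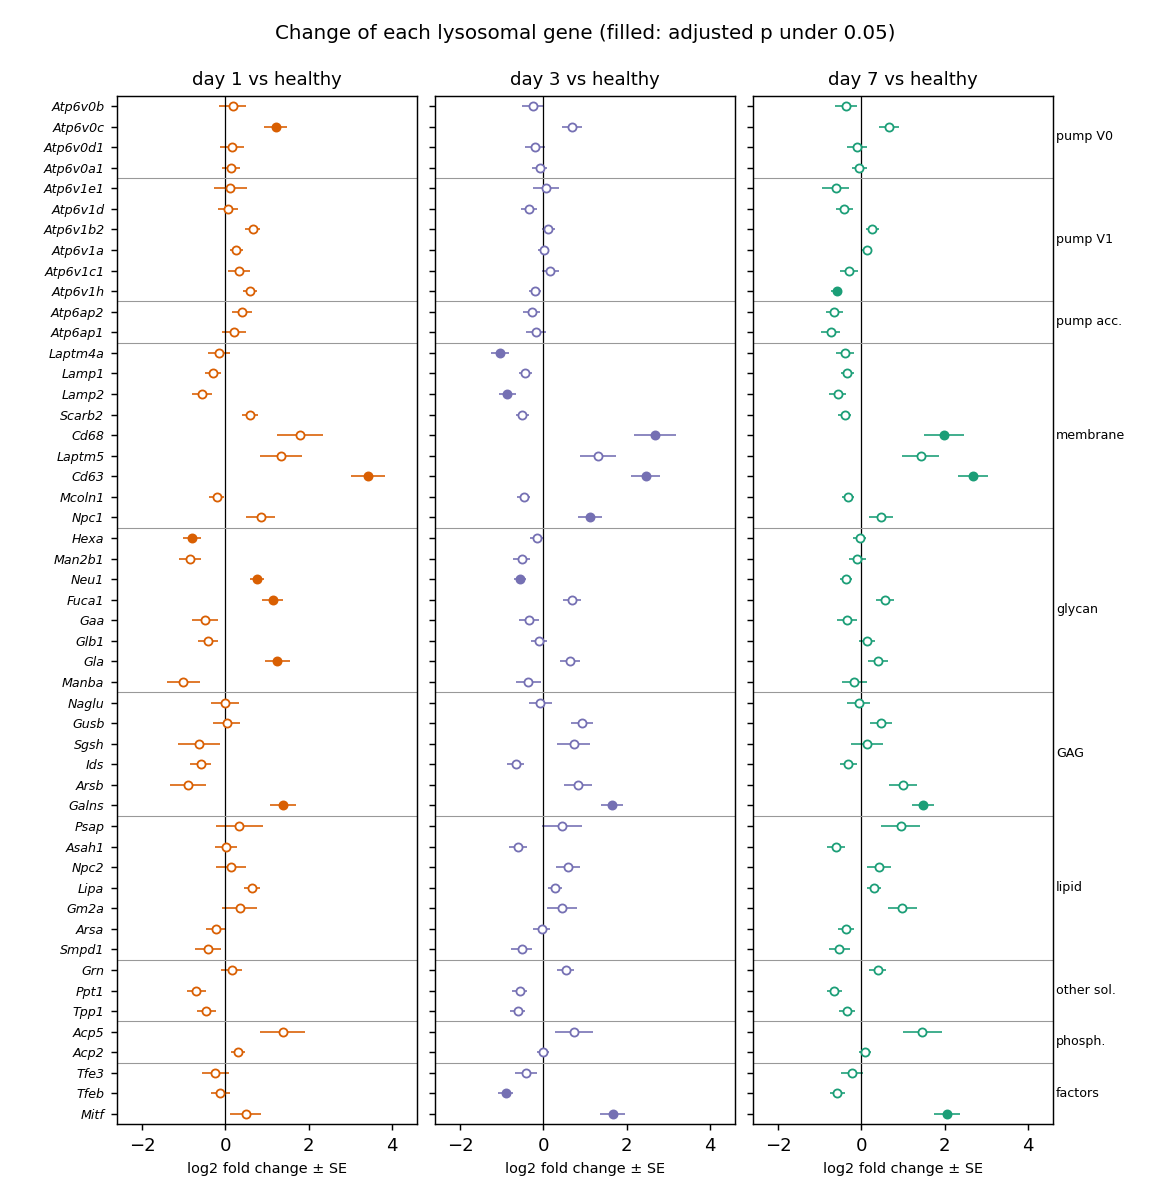
Log2 fold change against healthy (± SE) of each of the 50 lysosomal genes at day 1, day 3 and day 7, grouped by role. Filled points passed the test, and Cd63 lies farthest right at day 1 with 3.43.

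Among the 9 membrane proteins, Cd63 and Cd68 had the highest log2 fold changes at each day. At day 1, 1 of the 9 was called higher and none lower, beside 4.06% of all genes tested called in either direction. At day 3, 3 were higher and 2 lower, beside 7.19%, and at day 7, 2 were higher and none lower, beside 3.18%. The median of the 9 was 0.58 at day 1, -0.43 at day 3 and -0.32 at day 7, and at days 3 and 7, 5 of the 9 had a negative value.

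Cd63 (ENSMUSG00000025351, chr10:128900989-128912822, plus strand) encodes a tetraspanin of late endosomes, lysosomes and exosomes. It was at 59.6, 55.9, 51.1 and 32.5 CPM in the healthy samples, 628 and 444 at day 1, 311, 397, 232 and 153 at day 3 and 247, 524, 303 and 199.6 at day 7. Every injured sample lay above every healthy sample. The mean went from 49.8 ± 12 CPM (SD, n = 4) to 536 ± 129.6 CPM (SD, n = 2), or 3.43 ± 0.40 (SE, adjusted p = 0.000414) as a log2 fold change, and was 2.46 ± 0.35 (SE, adjusted p = 0.00227) at day 3 and 2.68 ± 0.36 (SE, adjusted p = 0.00481) at day 7. These calls held in every alternative and without any single sample. At day 3 without replicates 1 and 2 the value was 1.97 (adjusted p = 0.00869). The pseudogene Cd63-ps held 0.492 to 7.32 CPM of its own.

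Cd68 (ENSMUSG00000018774, chr11:69664213-69666153, minus strand) encodes a heavily glycosylated membrane protein that is abundant in macrophages. It was at 26.1, 94.7, 112 and 57.1 CPM in the healthy samples, 338 and 165 at day 1, 775, 608, 245 and 233 at day 3 and 246, 364, 331 and 208 at day 7. All injured samples were above all healthy samples, and day 3 replicates 1 and 2, those with the highest monocyte and neutrophil marker sums of that day, were the highest. The log2 fold change was 1.80 ± 0.55 (SE, adjusted p = 0.0908) at day 1, 2.68 ± 0.50 (SE, adjusted p = 0.00757) at day 3 and 1.99 ± 0.48 (SE, adjusted p = 0.0429) at day 7. At day 1 edgeR did not call it, while DESeq2 and limma did. The day 3 call held without any single sample, and without day 3 replicates 1 and 2 the value was 1.74 (adjusted p = 0.0429). The day 7 call was lost without any of the 4 healthy samples, either day 1 sample or any of day 7 replicates 2, 3 and 4 (adjusted p up to 0.132) and without the filter on low counts.

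Npc1 (ENSMUSG00000024413, chr18:12189692-12236400, minus strand), which passes cholesterol out of the lysosome, was at 26.7, 21.2, 22.5 and 23.3 CPM in the healthy samples, 46.6 and 37.8 at day 1, 51.7, 86.1, 28 and 39 at day 3 and 23.7, 38.1, 38.1 and 31 at day 7. Every day 3 sample was above every healthy sample, with replicate 2 the highest. On the log2 scale the change was 1.13 ± 0.29 (SE, adjusted p = 0.0329) at day 3, 0.85 ± 0.34 (SE, adjusted p = 0.204) at day 1 and 0.48 ± 0.29 (SE, adjusted p = 0.352) at day 7. The day 3 call was lost without any healthy sample, day 3 replicate 1 or 2 or day 7 replicate 4 (adjusted p up to 0.0956), without the filter on low counts and with only the 2 groups fitted. Without day 3 replicates 1 and 2 the value was 0.54 (adjusted p = 0.146). Exons of Rmc1 (17.1 to 26.8 CPM) overlap Npc1 on the other strand, and since the use of strand in counting is not stated, the 2 genes' reads may not be fully separated.

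Laptm4a (ENSMUSG00000020585, chr12:8921664-8938742, plus strand), the most abundant of the 50 genes per length, was at 717, 932, 1196 and 816 CPM in the healthy samples, 964 and 690.1 at day 1, 408, 315, 572 and 482 at day 3 and 801, 693, 606 and 702 at day 7. The 4 day 3 samples lay below all healthy samples. The mean fell from 915 ± 207 CPM (SD, n = 4) to 444 ± 109 CPM (SD, n = 4), or -1.04 ± 0.22 (SE, adjusted p = 0.014) as a log2 fold change, while day 1 gave -0.15 ± 0.27 (SE, adjusted p = 0.866) and day 7 -0.39 ± 0.22 (SE, adjusted p = 0.327). The call was lost with only the 2 groups fitted (adjusted p = 0.0577), and without day 3 replicates 1 and 2 the value was -0.78 (adjusted p = 0.0669).

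Lamp2 (ENSMUSG00000016534, chrX:38401357-38456454, minus strand), needed for chaperone-mediated autophagy and for the fusion of autophagosomes with lysosomes, was at 1302, 1029.7, 1113 and 1060.4 CPM in the healthy samples, 734 and 804 at day 1, 744, 702, 528 and 507 at day 3 and 1012, 636, 680.4 and 705 at day 7. Every injured sample lay below every healthy sample. The log2 fold change was -0.55 ± 0.24 (SE, adjusted p = 0.251) at day 1, -0.86 ± 0.19 (SE, adjusted p = 0.0186) at day 3 and -0.57 ± 0.19 (SE, adjusted p = 0.118) at day 7. The day 3 call was lost without healthy replicate 1 (adjusted p = 0.0623), the sample with the highest value. Lamp1 (ENSMUSG00000031447, chr8:13159161-13175338, plus strand), at 1161, 1149, 1202 and 1162 CPM in the healthy samples, 934 and 969.9 at day 1, 975, 764, 879.5 and 841 at day 3 and 1156, 871, 849 and 834 at day 7, was below all healthy samples at days 1 and 3 and overlapped them at day 7 through replicate 1. It was not called by edgeR, but DESeq2 called it at day 3 and limma at days 3 and 7, with log2 fold changes of -0.30 ± 0.19 (SE, adjusted p = 0.477), -0.43 ± 0.15 (SE, adjusted p = 0.111) and -0.33 ± 0.15 (SE, adjusted p = 0.235).

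Scarb2 (ENSMUSG00000029426, chr5:92441314-92506833, minus strand), the receptor that carries β-glucocerebrosidase to the lysosome, lay on both sides of its healthy level. It was at 485, 314, 427 and 455 CPM in the healthy samples, 662 and 599 at day 1, 305, 295, 273 and 313 at day 3 and 339, 342, 279.7 and 313 at day 7. Both day 1 samples were above all healthy samples, and all day 3 samples were below them. Neither difference from healthy was called by edgeR, while DESeq2 called both and limma that of day 1, at 0.58 ± 0.19 (SE, adjusted p = 0.111) and -0.50 ± 0.16 (SE, adjusted p = 0.0743), but the difference between day 3 and day 1 was called, as given with the other differences between days. The other 2 membrane proteins were not called by edgeR. Laptm5, a lysosomal protein of blood cells, had log2 fold changes of 1.34, 1.31 and 1.42, and was called by DESeq2 and limma at days 3 and 7. Mcoln1, a cation channel, had -0.21, -0.47 and -0.32, and was called by both at day 3 and by limma at day 7.

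**Figure D4:**
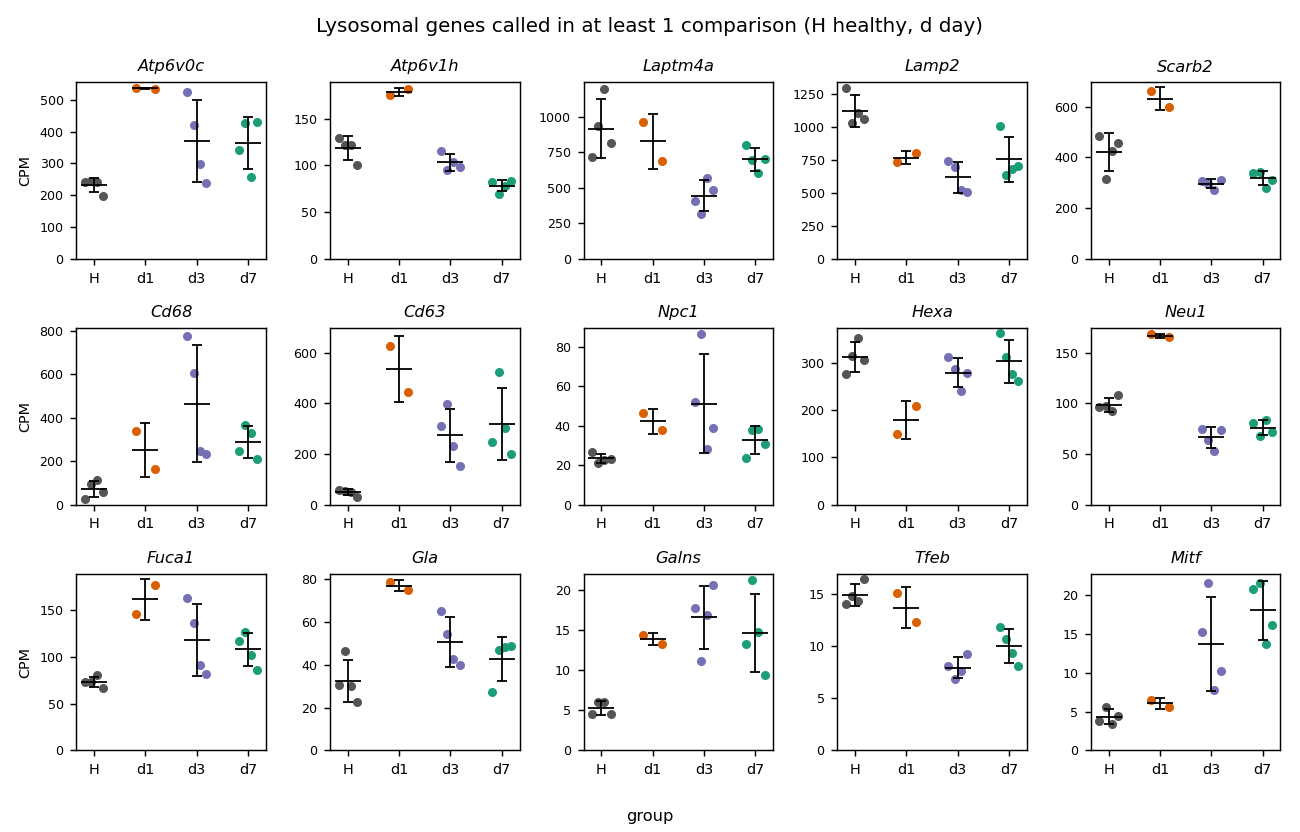
CPM of the 15 lysosomal genes called in at least 1 comparison, by group on axes that start at 0. Points are samples, horizontal bars are means and whiskers are SD, and in Cd63 and Galns every injured sample lies above every healthy sample.

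Of the 12 proton pump genes, edgeR called 2 in at least 1 of the 5 comparisons, DESeq2 4 and limma 8. At day 1 all 12 listed genes had a positive log2 fold change, with a median of 0.24, and edgeR called 1, DESeq2 3 and limma 3. The 10 pump subunits tested outside the list did not share this, with 5 positive and 5 negative and a median of -0.16. At days 3 and 7, 5 and 7 of these 10 were negative. At day 3, 7 of 12 were negative with a median of -0.13 and edgeR called none (1 at an unadjusted p under 0.05, 0 by DESeq2 and 2 by limma), and at day 7, 9 of 12 were negative with a median of -0.33 and edgeR called 1, DESeq2 2 and limma 7. The edgeR calls stand beside 4.06%, 7.19% and 3.18% of all genes tested at days 1, 3 and 7. The day 1 signs of the 12 listed genes were the same under both other scalings. The mean log2 CPM of the 12 genes ranged from 6.86 to 7.05 in healthy samples, was 7.34 in both day 1 samples, and ranged from 6.68 to 7.12 for day 3 and from 6.63 to 6.83 for day 7.

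Atp6v0c (ENSMUSG00000024121, chr17:24163866-24169702, minus strand), the subunit of the rotating ring in the membrane that carries the protons, was at 242, 245, 241 and 198 CPM in the healthy samples, 537 and 534 at day 1, 525, 420.0, 299 and 238 at day 3 and 344, 428, 257 and 431 at day 7. Both day 1 samples were above all healthy samples. The mean went from 232 ± 22.8 CPM (SD, n = 4) to 536 ± 2.19 CPM (SD, n = 2), or 1.21 ± 0.28 (SE, adjusted p = 0.0283) as a log2 fold change, with 0.68 ± 0.24 (SE, adjusted p = 0.11) at day 3 and 0.66 ± 0.24 (SE, adjusted p = 0.143) at day 7. The call was lost without either day 1 sample or any healthy sample (adjusted p up to 0.253). A pseudogene, Atp6v0c-ps2, held 132 to 159 CPM in healthy samples and 243 to 244 at day 1, so reads may be split between the 2 and the level of Atp6v0c is uncertain.

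Atp6v1h (ENSMUSG00000033793, chr1:5070018-5162529, plus strand), a regulatory subunit of the V1 part, was at 129, 122, 122 and 101 CPM in the healthy samples, 175 and 182 at day 1, 116, 95.2, 103 and 98.4 at day 3 and 82.4, 70.0, 77.9 and 83.3 at day 7. Both day 1 samples were above and all day 7 samples below every healthy sample. On the log2 scale the change was 0.59 ± 0.16 (SE, adjusted p = 0.0585) at day 1, -0.20 ± 0.13 (SE, adjusted p = 0.427) at day 3 and -0.60 ± 0.13 (SE, adjusted p = 0.0327) at day 7. DESeq2 and limma called it at day 1, where edgeR did not. The day 7 call was lost without either day 1 sample, any of healthy replicates 1, 2 and 3 or any of day 7 replicates 2, 3 and 4 (adjusted p up to 0.124) and when only library size was used for scaling. Rgs20, which overlaps it on the other strand, had at most 0.265 CPM.

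The accessory subunits Atp6ap1 and Atp6ap2, which help to assemble the pump, were below all healthy samples at day 7 without passing edgeR's test, while limma called both and DESeq2 Atp6ap2. Atp6ap2 was at 271, 239, 254 and 209 CPM in healthy samples and 181, 145, 142 and 154 CPM at day 7, a log2 fold change of -0.65 ± 0.20 (SE, adjusted p = 0.087), and Atp6ap1 gave -0.74 ± 0.24 (SE, adjusted p = 0.102). Of the others, Atp6v1b2, a catalytic-head subunit, had 0.66 ± 0.19 (SE, adjusted p = 0.0689) at day 1, where DESeq2 and limma called it.

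Of the 8 glycan enzymes, 3 rose and 1 fell at day 1, 1 fell at day 3 and edgeR called none at day 7 (2 at an unadjusted p under 0.05, 0 by DESeq2 and 2 by limma). Among all genes tested, edgeR called 4.06%, 7.19% and 3.18% at days 1, 3 and 7. The median was -0.45 at day 1, and the enzymes went in different directions on the same day.

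Gla (ENSMUSG00000031266, chrX:134588149-134601125, minus strand), the α-galactosidase A that removes terminal galactose from glycolipids, was at 30.6, 46.3, 29.9 and 22.8 CPM in the healthy samples, 78.9 and 75.1 at day 1, 65.1, 54.5, 42.6 and 39.8 at day 3 and 27.4, 46.8, 48.2 and 48.6 at day 7. Both day 1 samples exceeded all others. The mean went from 32.4 ± 9.92 CPM (SD, n = 4) to 77 ± 2.69 CPM (SD, n = 2), or 1.25 ± 0.29 (SE, adjusted p = 0.029) as a log2 fold change, with 0.64 ± 0.25 (SE, adjusted p = 0.146) at day 3 and 0.40 ± 0.25 (SE, adjusted p = 0.376) at day 7. The call was lost without either day 1 sample or any of healthy replicates 1, 3 and 4 (adjusted p up to 0.271) and without the filter on low counts.

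Fuca1 (ENSMUSG00000028673, chr4:135920735-135940311, plus strand), the lysosomal α-fucosidase, was at 73.3, 72.9, 80.0 and 67.1 CPM in the healthy samples, 146 and 176 at day 1, 163, 136, 91.1 and 81.2 at day 3 and 117, 127, 102 and 86.3 at day 7. Every injured sample was above every healthy sample. The log2 fold change was 1.14 ± 0.25 (SE, adjusted p = 0.0219) at day 1, 0.68 ± 0.22 (SE, adjusted p = 0.0735) at day 3 and 0.56 ± 0.21 (SE, adjusted p = 0.16) at day 7. DESeq2 and limma called it at day 3 and limma at day 7, where edgeR did not. The day 1 call was lost without either day 1 sample or healthy replicate 1 or 2 (adjusted p up to 0.171).

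Neu1 (ENSMUSG00000007038, chr17:34931253-34935953, plus strand), the lysosomal sialidase, was called in opposite directions at days 1 and 3. It was at 96, 97.3, 92 and 108 CPM in the healthy samples, 168 and 165 at day 1, 74.2, 63.6, 53.5 and 74 at day 3 and 80.8, 68, 83.7 and 71.5 at day 7. The day 1 samples lay above and the day 3 and day 7 samples below every healthy sample. On the log2 scale the change was 0.76 ± 0.17 (SE, adjusted p = 0.0242) at day 1, -0.57 ± 0.15 (SE, adjusted p = 0.0318) at day 3 and -0.37 ± 0.14 (SE, adjusted p = 0.166) at day 7. The day 1 call was lost without any healthy sample, either day 1 sample or day 7 replicate 4 (adjusted p up to 0.258), with scaling by library size only and without the filter on low counts. The day 3 call was lost without any healthy sample (adjusted p up to 0.0787), with scaling by library size only and with only the 2 groups fitted.

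Hexa (ENSMUSG00000025232, chr9:59539540-59565109, plus strand), a subunit of the enzyme that degrades GM2 ganglioside, was at 277, 315, 352 and 305 CPM in the healthy samples, 151 and 208 at day 1, 312, 288, 239.8 and 278 at day 3 and 363, 314, 277 and 261 at day 7. Both day 1 samples lay below all other samples. The log2 fold change was -0.80 ± 0.21 (SE, adjusted p = 0.0496) at day 1, just inside the threshold, and -0.16 ± 0.17 (SE, adjusted p = 0.623) and -0.04 ± 0.17 (SE, adjusted p = 0.92) later. The call held only without day 3 replicate 4 and without day 7 replicate 1 among the 14 fits that leave out 1 sample (adjusted p up to 0.586), and it was also lost when only library size was used for scaling, with RLE size factors and without the filter on low counts. Tmem202, which overlaps it on the other strand, had at most 2.14 CPM. The enzymes edgeR did not call were Man2b1 (-0.84 at day 1), Manba (-1.01), Gaa (-0.49) and Glb1 (-0.42), which cleave mannose, mannose, glucose and galactose residues. Their day 1 samples lay below all healthy samples in each case, and at day 1 limma called the first 3 and DESeq2 Man2b1.

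Among the 6 glycosaminoglycan enzymes, Galns was called at all 3 days and edgeR called no other at any. The share of all genes called was 4.06%, 7.19% and 3.18% at days 1, 3 and 7. The other 5 had 1, 3 and 1 unadjusted p under 0.05 at days 1, 3 and 7, with 0, 2 and 1 calls by DESeq2 and 1, 3 and 1 by limma. Galns (ENSMUSG00000015027, chr8:122578242-122611463, minus strand) was at 4.54, 6.06, 6.06 and 4.54 CPM in the healthy samples, 14.4 and 13.3 at day 1, 17.8, 11.2, 16.9 and 20.6 at day 3 and 13.3, 21.2, 14.8 and 9.45 at day 7. Every injured sample lay above every healthy sample, from a low level. The mean went from 5.30 ± 0.878 CPM (SD, n = 4) to 13.9 ± 0.767 CPM (SD, n = 2), 16.6 ± 3.94 CPM (SD, n = 4) and 14.7 ± 4.91 CPM (SD, n = 4). The log2 fold changes were 1.39 ± 0.31 (SE, adjusted p = 0.0208), 1.65 ± 0.27 (SE, adjusted p = 0.004) and 1.47 ± 0.27 (SE, adjusted p = 0.0124). The day 3 call held in every alternative and without any single sample, the day 1 call was lost without either day 1 sample or healthy replicate 1 or 4 (adjusted p up to 0.234), and the day 7 call without healthy replicate 1 (adjusted p = 0.0558).

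Gusb, the β-glucuronidase, was at 65.5, 72.2, 81.1 and 57.2 CPM in the healthy samples, 81 and 60.5 at day 1, 150.1, 199, 87.8 and 88.5 at day 3 and 85.6, 118, 107 and 73.3 at day 7. All day 3 samples were above the healthy ones, and the log2 fold change of 0.93 ± 0.27 (SE, adjusted p = 0.0512) missed the threshold. Arsb, a sulfatase of dermatan sulfate, had -0.89 ± 0.43 (SE, adjusted p = 0.306) at day 1, 0.83 ± 0.34 (SE, adjusted p = 0.168) at day 3 and 1.00 ± 0.34 (SE, adjusted p = 0.121) at day 7. The heparan sulfate enzymes Sgsh, Ids and Naglu had day 3 values of 0.73, -0.67 and -0.07, with adjusted p of 0.308, 0.0643 and 0.913.

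None of the 7 lipid enzymes and helper proteins was called by edgeR against healthy at any day. At days 1, 3 and 7, 1, 1 and 2 of them had an unadjusted p under 0.05, DESeq2 called 1, 1 and 0, and limma called 1, 4 and 3. Psap (ENSMUSG00000004207, chr10:60277627-60302597, plus strand), at 317, 698, 1076 and 473 CPM in the healthy samples, 1151 and 466 at day 1, 537, 554, 779 and 1634 at day 3 and 736, 2072, 1059 and 1067 at day 7, overlapped between all groups and had log2 fold changes of 0.34 ± 0.57 (SE, adjusted p = 0.85), 0.45 ± 0.47 (SE, adjusted p = 0.628) and 0.94 ± 0.47 (SE, adjusted p = 0.27). Lipa, the acid lipase of cholesteryl esters, was at 199, 214, 239 and 224 CPM in healthy samples, 336 and 349 at day 1 and 278, 309, 253 and 245 at day 7. It lay above all healthy samples at both days, with 0.64 ± 0.20 (SE, adjusted p = 0.0893) and 0.31 ± 0.16 (SE, adjusted p = 0.296), and DESeq2 and limma called it at day 1. Asah1, the acid ceramidase, was at 263, 237, 251 and 217 CPM in healthy samples and 209, 166, 145 and 111 at day 3, below all of them, with -0.62 ± 0.22 (SE, adjusted p = 0.106). Gm2a, the GM2 activator, reached 0.99 ± 0.36 (SE, adjusted p = 0.138) at day 7. The other 3, Npc2, Arsa and Smpd1, had log2 fold changes from -0.53 to 0.59 over the 3 days.

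The 3 other soluble proteins and the 2 phosphatases were not called by edgeR either, with 2, 3 and 2 at an unadjusted p under 0.05 at days 1, 3 and 7, 1, 2 and 2 calls by DESeq2 and 2, 3 and 3 by limma. Tpp1, a peptidase, and Ppt1, a palmitoyl-protein thioesterase, were below all healthy samples at day 3, with -0.62 ± 0.19 (SE, adjusted p = 0.0667) and -0.57 ± 0.18 (SE, adjusted p = 0.0736), while Grn, the progranulin gene, had 0.54 ± 0.21 (SE, adjusted p = 0.139). Acp5, at 139.8 and 54.3 CPM at day 1 and 66, 131, 123 and 91.2 CPM at day 7, was above all healthy samples at both days and overlapped them at day 3. Its log2 fold change was 1.38 at day 1 and 1.46 ± 0.47 (SE, adjusted p = 0.101) at day 7. The injury macrophage markers summed to 436 to 684 CPM at day 1 and 1189 to 6835 CPM at day 7, and their part was not tested. Acp2 had its largest log2 fold change at day 1, 0.31.

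The 3 transcription factors of lysosomal genes parted. Mitf (ENSMUSG00000035158, chr6:97807052-98021349, plus strand) was at 3.75, 5.59, 3.44 and 4.46 CPM in the healthy samples, 6.49 and 5.57 at day 1, 15.2, 21.5, 7.73 and 10.2 at day 3 and 20.8, 21.5, 13.6 and 16.1 at day 7. All day 3 and day 7 samples were above all healthy samples, and day 1 overlapped them narrowly. The mean went from 4.31 ± 0.954 CPM (SD, n = 4) to 13.7 ± 6.05 CPM (SD, n = 4) and 18 ± 3.76 CPM (SD, n = 4), log2 fold changes of 1.66 ± 0.31 (SE, adjusted p = 0.00751) and 2.06 ± 0.31 (SE, adjusted p = 0.006), after 0.48 ± 0.36 (SE, adjusted p = 0.556) at day 1. The injury macrophage markers, at 1189 to 6835 CPM, were also highest at day 7, and their part in this was not tested. Both calls held in every alternative and without any single sample, and the day 3 value was 1.08 (adjusted p = 0.0324) without day 3 replicates 1 and 2.

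Tfeb (ENSMUSG00000023990, chr17:47737030-47792419, plus strand) went the other way. It was at 14, 14.7, 14.3 and 16.4 CPM in the healthy samples, 15 and 12.3 at day 1, 8.03, 6.86, 7.56 and 9.21 at day 3 and 11.8, 10.7, 9.33 and 8.03 at day 7. All day 3 and day 7 samples lay below all healthy samples. The mean fell from 14.9 ± 1.09 CPM (SD, n = 4) to 7.91 ± 0.992 CPM (SD, n = 4), or -0.91 ± 0.19 (SE, adjusted p = 0.0121) as a log2 fold change, with -0.58 ± 0.19 (SE, adjusted p = 0.102) at day 7 and -0.12 ± 0.23 (SE, adjusted p = 0.871) at day 1. DESeq2 and limma called Tfeb at day 7, where edgeR did not. The day 3 call held in every alternative and without any single sample, and without day 3 replicates 1 and 2 the value was -0.80 (adjusted p = 0.04999).

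Tfe3 (ENSMUSG00000000134, chrX:7762560-7775202, plus strand) was at 50.8, 63.8, 66.8 and 61 CPM in the healthy samples, 49.1 and 53.3 at day 1, 29.8, 28.6, 49.3 and 75.1 at day 3 and 43.8, 49, 57.5 and 56.1 at day 7. Day 3 replicates 1 and 2 were the lowest samples and replicate 4 the highest, so that day spread widely. Against healthy it was not called by edgeR or DESeq2 at any day but was called by limma at day 3, with log2 fold changes of -0.24 ± 0.33 (SE, adjusted p = 0.793), -0.41 ± 0.26 (SE, adjusted p = 0.407) and -0.23 ± 0.26 (SE, adjusted p = 0.66). The 11 genes with TCACGTG in the promoter had a median log2 fold change of -0.21 at day 1, -0.11 at day 3 and -0.11 at day 7, beside 0.14, -0.09 and -0.05 for the 33 genes with a promoter entry and no such motif. Of the 11, 1 was called at day 1 and none at days 3 and 7. At days 3 and 7, 3 and 1 of them had an unadjusted p under 0.05, DESeq2 called 2 and 0 and limma 5 and 2. Of the 33, edgeR called 5, 7 and 3 at days 1, 3 and 7, beside 4.06%, 7.19% and 3.18% of all genes tested.

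Between the injured groups, day 3 differed from day 1 in 3 of the 50 genes, all lower at day 3, beside 2.54% of all genes tested (1.57% higher and 0.969% lower). Neu1 had a log2 fold change of -1.33 ± 0.17 (SE, adjusted p = 0.00274), Scarb2 of -1.09 ± 0.19 (SE, adjusted p = 0.0109) and Atp6v1h of -0.79 ± 0.16 (SE, adjusted p = 0.0211). In each of the 3, both day 1 samples were above all 4 day 3 samples, a separation that 14 of the 50 genes showed in this direction and 5 in the other, beside 21.8% of all genes in either. All 12 pump genes among the 50 had a negative value, with a median of -0.40. Of the 10 further pump subunits tested, 9 had a positive value, with a median of 0.30. Neu1 was called without any single sample, while Scarb2 and Atp6v1h were lost without either day 1 sample, leaving 1 gene called, and none of the 3 passed with only these 2 groups fitted. Without day 3 replicates 1 and 2, 9 were called. Arsb, with 1.72 ± 0.45 (SE, adjusted p = 0.0645), had the highest value and was called by DESeq2 and limma but not by edgeR.

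Day 7 against day 3 gave no call by edgeR among the 50 genes, beside 1.77% of all genes tested (0.413% higher and 1.36% lower), with 5 at an unadjusted p under 0.05, 2 by DESeq2 and 13 by limma. The 5 were Laptm4a (0.66), Npc1 (-0.65), Atp6v1c1 (-0.47), Atp6v1h (-0.40) and Atp6ap1 (-0.57). Laptm4a was the only gene with all day 7 samples above all day 3 samples, and Atp6v1h the only one with all below, beside 7.91% of all genes with no overlap.

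The mean log2 CPM over the 50 genes ranged from 6.45 to 6.71 in healthy samples, from 6.77 to 6.87 for day 1, from 6.51 to 6.84 for day 3 and from 6.66 to 6.82 for day 7. Both day 1 samples were above all healthy samples, and days 3 and 7 overlapped them. The day 7 overlap depended on the scaling, since with library size only the 4 day 7 samples, at 6.72 to 6.87, and the 2 day 1 samples, at 6.71 to 6.78, all lay above the healthy samples, which reached 6.66, while day 3 still overlapped at 6.59 to 6.88. The mean weights every gene equally, and at days 3 and 7, 28 of the 50 genes had a negative log2 fold change. At day 1 the mean of the luminal enzymes and helper proteins alone, 6.43 and 6.37, lay within the healthy 6.19 to 6.54. That of the membrane proteins, 8.45 and 8.12 at day 1, lay above the healthy 7.31 to 7.75.

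**Figure D5:**
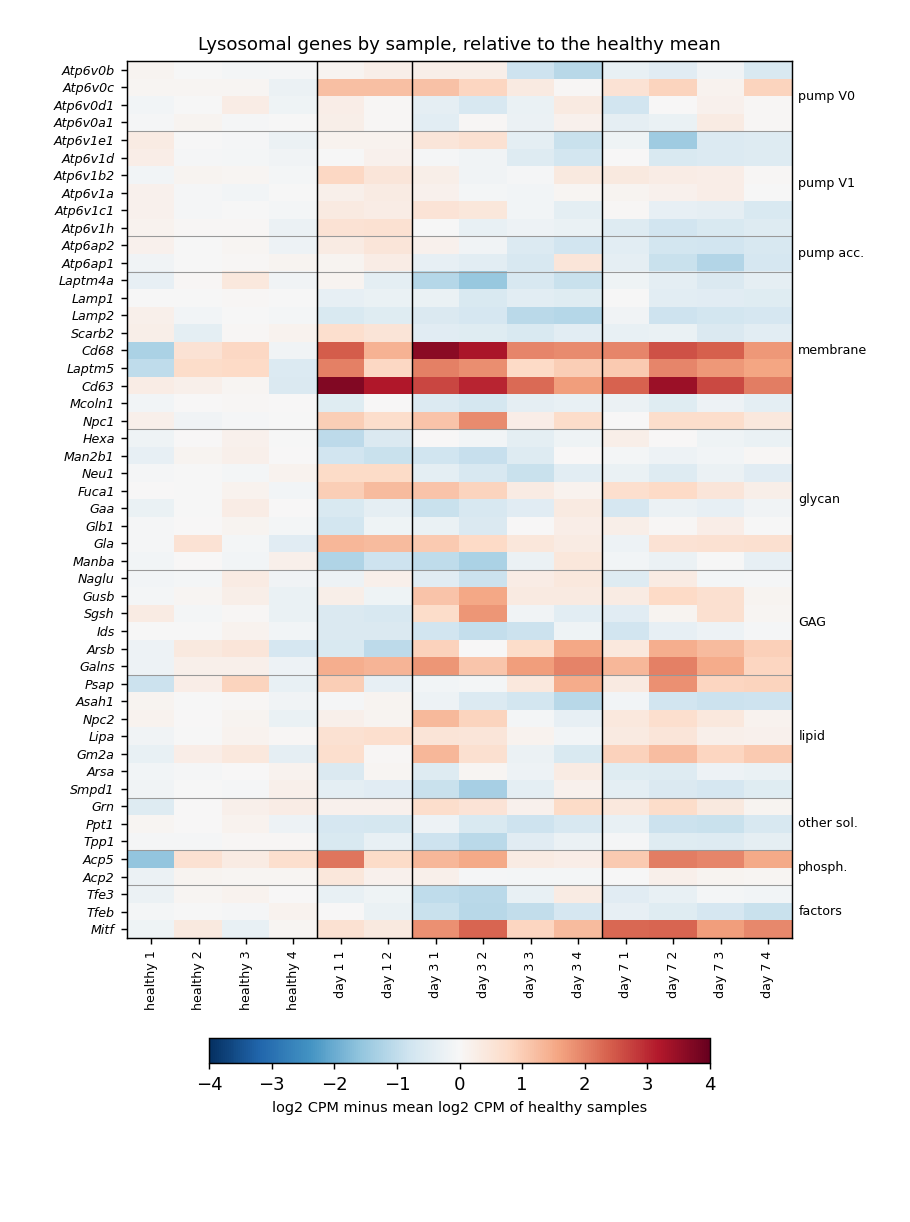
Log2 of CPM of the 50 lysosomal genes in the 14 samples, minus the mean of the healthy samples, grouped by role. Red is above and blue below the healthy mean, and Cd63, Cd68 and Mitf are among the reddest rows at day 7 while Tfeb, Lamp2 and Atp6ap2 are blue there.

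Other genes of the pathway were tested as lists of their own. Of the 13 further pump subunits, 10 could be tested, and 1 was called at days 3 and 7, or 10%, beside 7.19% and 3.18% of all genes tested. That gene, Atp6v0d2, a V0 subunit of osteoclasts and some macrophages, rose at both days. It was at 0, 0.129, 0.0624 and 0 CPM in healthy samples, 1.02, 0.748, 2.95 and 4.30 at day 3 and 42.8, 75.5, 88.7 and 42.2 at day 7, with a log2 fold change of 10.33 ± 1.22 (SE, adjusted p = 0.00191) at day 7 that depends on the prior count because 2 healthy samples had none. The 4 day 7 samples were above all others.

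Of 33 other lysosomal hydrolases and transporters, edgeR called none at day 1 (8 at an unadjusted p under 0.05, 4 by DESeq2 and 12 by limma), 5 fell at day 3, and 3 fell and 1 rose at day 7. The calls were 15.2% of the 33 at day 3 and 12.1% at day 7, beside 7.19% and 3.18% of all genes tested. Hyal2, a hyaluronidase anchored at membranes, was at 110.1, 103, 123 and 131 CPM in healthy samples, 48.9, 56.8, 50.1 and 58.8 at day 3 and 67.8, 44.7, 39.4 and 65.5 at day 7. All injured samples of days 3 and 7 were below the healthy ones, at -1.12 ± 0.19 (SE, adjusted p = 0.00454) and -1.10 ± 0.19 (SE, adjusted p = 0.00961). Mfsd8, a lysosomal membrane transporter, and Cd164, a sialomucin, fell at both days, with -1.20 and -0.64 at day 3, and Sumf1, which activates sulfatases such as the product of Galns, and Abcb9, a peptide transporter, fell at day 3 with -0.54 and -1.02. Pld3, a lysosomal nuclease, rose at day 7 by 0.90 ± 0.21 (SE, adjusted p = 0.0341). Of the 20 genes of mannose 6-phosphate sorting and lysosomal signaling, edgeR called none at days 1 and 3 (3 and 4 at an unadjusted p under 0.05, 1 and 3 by DESeq2, 4 and 7 by limma). At day 7, 2 rose, or 10%, beside 3.18% of all genes tested. They were Igf2r, the large mannose 6-phosphate receptor, by 1.11 ± 0.27 (SE, adjusted p = 0.042), and Rragd, a GTPase that brings mTORC1 to the lysosome, by 2.75 ± 0.36 (SE, adjusted p = 0.00444), from 0.659, 1.03, 0.780 and 0.744 CPM in healthy samples to 3.15, 7.73, 4.81 and 5.92 CPM.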

How the data were processed

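RNA of sorted LSECs was measured in 14 samples of 4 groups taken from the sample labels. The authors mapped reads with STAR to GRCm38 and processed them with StringTie, per the labels and the study's methods, and deposited raw whole-number read counts per Ensembl gene without normalization. The annotation release and the use of strand in counting are not given in the sources used here, so counts of the 14 lysosomal genes whose exons overlap another gene are uncertain. Of 54524 identifiers, 54495 were found in GENCODE vM21. The 50 genes and the other lists were chosen with earlier results of these data known.

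Genes were filtered with filterByExpr (minimum count 10, minimum total 15), scaled with TMM and tested with edgeR 4.0.16 (R 4.3.3) by the quasi-likelihood test in 1 model of the 4 group means, with Benjamini-Hochberg adjustment over 26626 genes and a threshold of 0.05. Each SE was derived by dividing the size of the log2 fold change by the root of the test's F value. CPM use TMM-scaled library sizes, and mean log2 CPM a prior count of 2. Every sample's value is given for the genes called in any comparison, the 3 factors, and the 3 highest and 3 lowest in healthy samples per length, and for some uncalled genes chosen after their values were seen. Of the other lists, called genes with the largest changes were named, at most 5 per list and comparison. The scripts were tested on simulated data. Alternatives were DESeq2 1.42.0, limma 3.58.1 with voom and sample weights, scaling by RLE or by library size alone, no filter on low counts, a fit of only the 2 groups compared, a replicate block, and leaving out each sample. The labels do not say whether each sample came from its own mouse, so p-values measure the spread between these samples.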

Additional observations from a re-analysis of the deposited data

Results flagged for a closer look

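In 3 of the 54 groups of 4 samples tested, 1 sample lay apart from the other 3 by more than Dixon's 95% critical value, where chance gives about 1 in 20. Gla was lowest in day 7 replicate 1 with 27.4 CPM, Atp6v0c lowest in healthy replicate 4 with 198 CPM, and Lamp1 highest in day 7 replicate 1 with 1156 CPM. Healthy replicate 4 also held the highest hepatocyte marker sum, 8115 CPM, whose part was not tested.

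In 3 genes the change from healthy differed between day 1 and day 3 by the test of the difference itself. The log2 fold change of day 3 against day 1 was -1.33 for Neu1, -1.09 for Scarb2 and -0.79 for Atp6v1h, all with edgeR.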

How the results depend on the processing

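Of the 24 calls of a lysosomal gene in a comparison, 10 held with each of 7 other tools or settings, 10 without any single sample and 8 under both, and no call changed direction. Those 8 were Cd63 at all 3 days, Galns, Tfeb, Mitf and Cd68 at day 3 and Mitf at day 7. The counts of called genes moved more. At day 1, 7 were called, against 14 with DESeq2, 20 with limma, 4 without the filter on low counts, 15 with only the 2 groups fitted and 14 without day 3 replicates 1 and 2, which was added after seeing the data. At day 3, 9 were called, against 19 with DESeq2 and 30 with limma. At day 7, 5 were called, against 11 with DESeq2, 26 with limma, 11 with only the 2 groups fitted and 10 without day 3 replicates 1 and 2. For day 3 against day 1, 3 were called, against 8 with DESeq2, 15 with limma, 0 with only the 2 groups fitted and 9 without day 3 replicates 1 and 2. For day 7 against day 3, none was called, against 2 with DESeq2, 13 with limma and 1 without day 3 replicates 1 and 2. Without single samples the counts ran from 1 to 11 at day 1, 6 to 22 at day 3, 2 to 9 at day 7, 1 to 4 for day 3 against day 1 and 0 to 2 for day 7 against day 3. The cause of these shifts was not tested. Over all genes tested, the calls in these 5 comparisons were 1080, 1915, 846, 676 and 472 with edgeR, 2837, 3790, 2713, 2408 and 1783 with DESeq2 and 4308, 7265, 7047, 3344 and 6002 with limma.

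The replicate numbers are not known to pair the samples. Deviations from the group means gave no sign of pairing, but they cannot exclude a shared batch. Those of the 2 day 1 samples mirror each other and carry no separate information. Over 18 pairs of samples with the same number, the correlation of deviations from the group means was -0.23 to 0.096, and the best match carried the same number in 9 of 36 cases. With the replicate number as a block, 1 gene was called at day 1, 7 at day 3, 3 at day 7, 2 for day 3 against day 1 and 0 for day 7 against day 3. The calls lost were Atp6v0c, Fuca1, Galns, Gla, Hexa and Neu1 at day 1, and Neu1 and Npc1 at day 3. Cd68 and Atp6v1h were lost at day 7, and Atp6v1h for day 3 against day 1.

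With 2 samples at day 1, differences at that day rest on the spread estimated over all groups, and leaving out either leaves 1 sample that is assumed to vary like the others. Depth did not limit the lysosomal genes, whose lowest count was 331.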
